A study of Mus musculus with 18 samples.

Results

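Wnt ligands, the Frizzled receptors that bind them and the secreted proteins that hold them back were followed in mouse embryonic stem (ES) cells and in neural cultures made from them. The 39 genes were taken by symbol from the 23420 genes counted: 19 Wnt ligands, 10 Frizzled receptors (Fzd), 4 secreted frizzled-related proteins (Sfrp), 4 Dickkopf genes (Dkk), Wif1 and Axin2. The rule used names alone and no measured value. It and the other gene lists were chosen with earlier results of these data known. Sfrp3 is listed in mouse as Frzb and is described with the other inhibitors. After a filter on low counts 38 were tested; Dkk4 was left out, with at most 0.049 CPM in any library (CPM are a gene's counts per 1 M gene counts).

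RNA was sequenced in 18 libraries, 2 in each of 9 groups, all from the wild type E14 line grown without feeder cells and with leukemia inhibitory factor. Of the 4 ES cell groups, 3 had a 24 h dose of GW3965, of LG268 or of both, and day 0 control ES cells served as their control. GW3965 is an agonist of the liver X receptors (LXR). LG268 is an agonist of their DNA-binding partners, the retinoid X receptors (RXR), which also pair with several other nuclear receptors. Ligands were used at 1 µM, and the vehicle was dimethyl sulfoxide. The differentiated cultures passed through embryoid bodies, were given 5 µM all-trans retinoic acid, and were plated on laminin and poly-L-ornithine in N2 medium. They were collected at day 8, at day 16 with GW3965 and without it, and at day 17 with GW3965 and without it. Thus all 5 differentiated groups had received retinoic acid. The labels give no length for the GW3965 dose at days 16 and 17; the names of the deposited files point to dosing since day 8 in the day 16 group and to a 24 h dose in the day 17 group. The names of the both-ligand files also carry the abbreviation for control, and those libraries were grouped by their labels. Nothing in the labels says that the 2 libraries of a group came from separate cultures. The p-values therefore measure the spread between libraries of a group, pooled over the 9 groups, and that spread may be technical.

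Wnt proteins are secreted, lipid-modified ligands. In the canonical branch a Wnt joins a Frizzled receptor to the co-receptors Lrp5 and Lrp6, which keeps beta-catenin from being degraded and lets it act on genes with TCF and LEF factors; Axin2 is a widely used target of this branch and also one of its brakes. Other Wnts, among them Wnt5a and Wnt11, are best known for signalling without beta-catenin, in planar polarity and cell movement. Sfrp proteins and Wif1 bind Wnts outside the cell, and Dkk1 and Dkk2 bind Lrp5 and Lrp6. In ES cells Wnt signalling is known for roles in self-renewal and in the start of mesoderm formation, and in the developing nervous system for roles in dorsal patterning, progenitor growth and axon guidance.

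The start-site region is shown for 3 genes. Axin2 and Wnt3 were both lower with LG268. Wnt11 has 2 such regions: the region shown holds a TCF/LEF motif, and the other holds none of the motifs searched. Each sequence covers the 250 bases before a RefSeq start in build GRCm38.p6, 5′ to 3′ on the gene's strand, and capitals mark a motif match.
Axin2, chr11:108920099-108920348, plus strand: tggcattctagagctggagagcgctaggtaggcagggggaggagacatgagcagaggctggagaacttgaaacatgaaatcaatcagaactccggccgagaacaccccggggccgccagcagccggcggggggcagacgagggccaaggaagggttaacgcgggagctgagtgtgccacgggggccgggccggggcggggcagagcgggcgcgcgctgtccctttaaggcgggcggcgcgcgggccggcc
Wnt3, chr11:103773925-103774174, plus strand: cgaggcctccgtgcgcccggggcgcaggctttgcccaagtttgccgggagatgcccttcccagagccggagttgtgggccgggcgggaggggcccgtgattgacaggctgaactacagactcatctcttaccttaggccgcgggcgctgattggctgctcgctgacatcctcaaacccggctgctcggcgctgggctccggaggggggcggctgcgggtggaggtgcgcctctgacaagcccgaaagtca
Wnt11, chr7:98834862-98835111, plus strand: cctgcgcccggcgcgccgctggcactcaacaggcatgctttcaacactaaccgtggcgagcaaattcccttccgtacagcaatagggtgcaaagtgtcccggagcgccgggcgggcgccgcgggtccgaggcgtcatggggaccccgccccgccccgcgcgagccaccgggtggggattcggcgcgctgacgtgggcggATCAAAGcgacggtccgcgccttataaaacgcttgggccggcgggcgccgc

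The motifs CTTTGAT and CTTTGAA, read on both strands and differing in their last base, are the usual TCF/LEF core. At least 1 of them lay in 3 of the 30 such regions found for 27 of the 39 genes (10%; Wnt11, Wnt5b and Dkk1), against 7.48% of all 32851 regions in the table. In Wnt11 the match is on the minus strand, 51 to 45 bases before the start. The core element of nuclear receptors, AGGTCA, lay in 1 of the 30 (3.33%, Wnt16) and in 14% of all regions. Its direct repeats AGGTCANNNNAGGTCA and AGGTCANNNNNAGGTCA, each of which holds the core as well, lay in 0 of the 30, against 0.0152% and 0.00913% of all. The windows printed for Axin2 and Wnt3 held none of these motifs.

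The libraries held 16.75 to 44.79 M gene counts (median 23.51 M). The day 17 files list 31.84 to 33.53% of their reads as aligned more than once and the 14 other files list 0, so the step between days 16 and 17 and a difference in how the files were made cannot be told apart. The 2 libraries of GW3965 at day 16 stood farther apart than those of any other group (chi-square of 40.39 per gene), followed by the 2 both-ligand libraries (10.25), against 2.801 to 6.89 in the other groups. Summed pluripotency markers (10 genes, Pou5f1 and Nanog among them) were 1913 to 2268 CPM in the ES libraries and 121.5 to 261.7 CPM in all later ones. Summed markers of neurons (8 genes) reached 1362 to 3435 CPM in the differentiated libraries, against 392.2 to 491.6 CPM in ES cells, although the source label of every library reads embryonic stem cells. The exons of 7 of the 39 genes overlap a gene on the opposite strand in GENCODE M21 (Fzd5, Sfrp2, Wnt11, Wnt7b, Wnt5a, Fzd6 and Axin2), and the strand setting of the counting is not given in the sources used here, so their reads may include those of the partner.

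**Figure D1:**
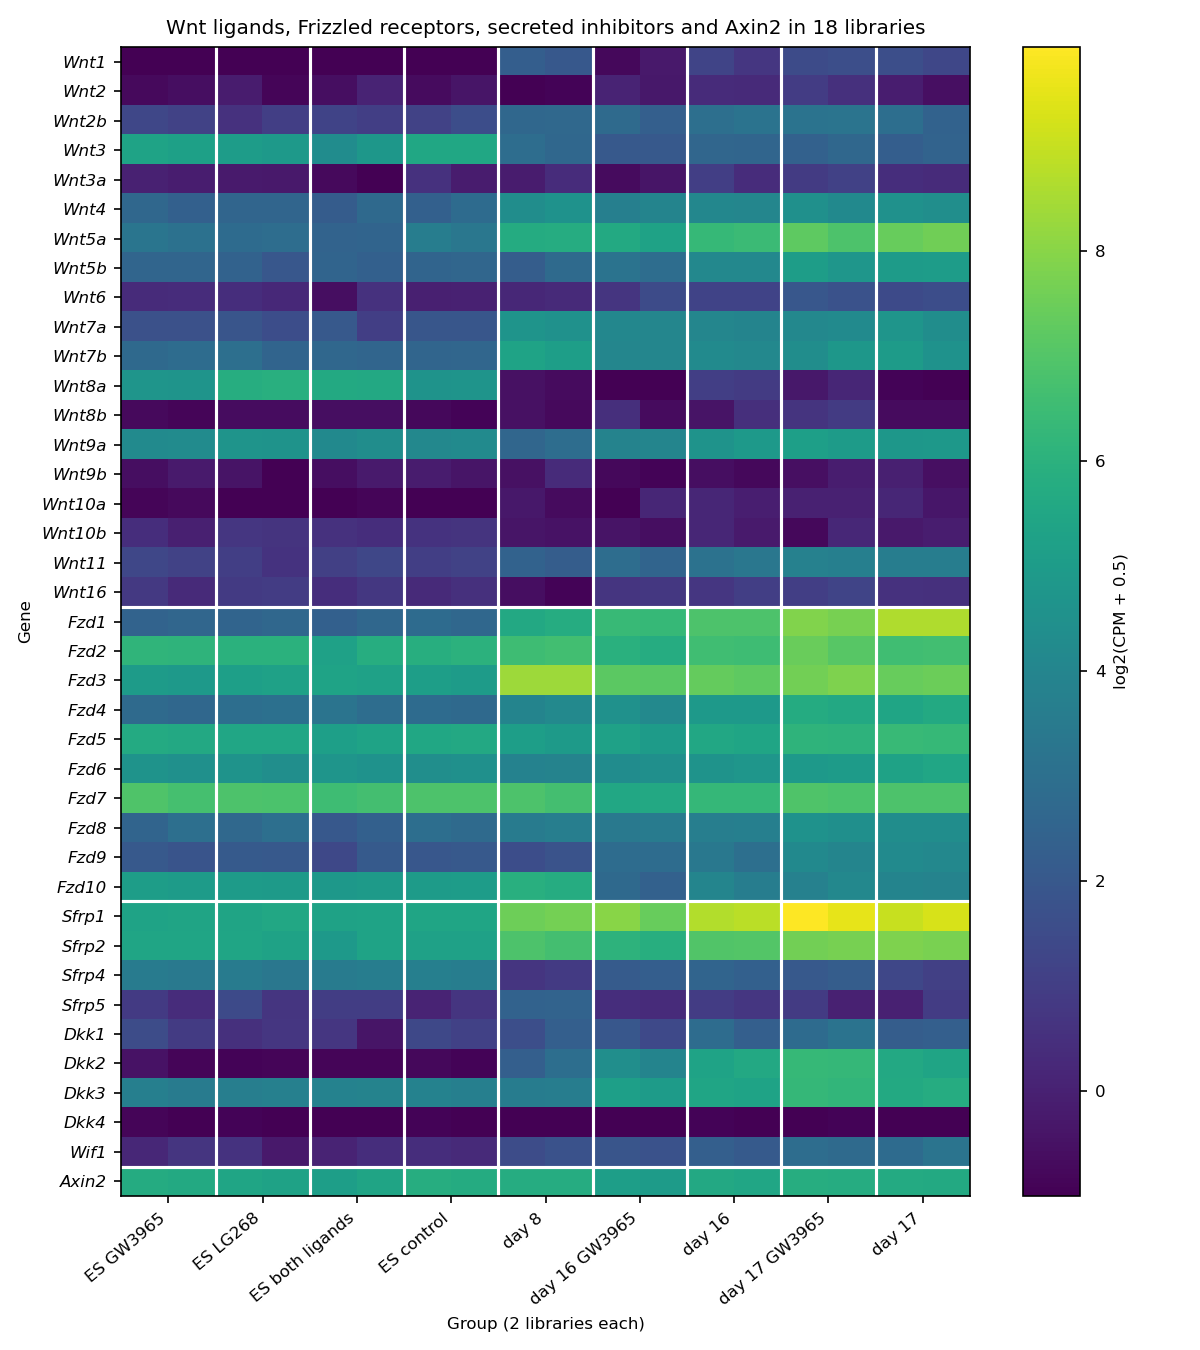
Level of the 39 genes (rows) in each of the 18 libraries (columns, ordered by group) as log2(CPM + 0.5). Wnt8a and Wnt3 are higher in the ES columns than in the differentiated ones. Fzd1, Sfrp1, Wnt5a and Dkk2 are each lower in the ES columns.

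In control ES cells the genes were led, per kilobase (kb) of exon, by the receptor Fzd7 at 26.0 ± 0.25 CPM per kb (SD, n = 2), the inhibitor Sfrp2 at 17.6 ± 0.26 and the receptor Fzd2 at 16.6 ± 1.4. The ligands Wnt3 and Wnt8a followed at 14.9 ± 0.0064 and 14.0 ± 0.19 CPM per kb. Wnt3 and Wnt8a, both canonical ligands of the early embryo, made up 34.6% and 32.4% of the summed ligand level per kb, and Wnt9a a further 12.2%. Sfrp2 and Sfrp1 made up 49.1% and 27.2% of the summed level of secreted inhibitors. Wnt1, which later marks the dorsal midline of the neural tube, had no count in any of the 8 ES libraries.

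With GW3965 in ES cells none of these genes passed the test. The comparison called 0 of 38 at an adjusted p below 0.05 (edgeR quasi-likelihood test, Benjamini-Hochberg over 17166 genes), 0 at an unadjusted p below 0.05, and 0 with DESeq2 or limma-voom; over all genes 0.320% were called (0.309% higher, 0.0117% lower). Wnt8a had 25.6 and 24.9 CPM with GW3965, against 24.2 and 24.7 CPM in control cells. That is a log2 difference of 0.05 ± 0.11 (SE). Wnt5a, the gene with the smallest unadjusted p (0.0604), had 9.15 and 8.10 CPM with GW3965, against 12.1 and 9.64 CPM in control cells. These values lay apart, by less than the control libraries differed from each other.

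With LG268 the ligand Wnt8a rose 2.34-fold, and the ligand Wnt3 and the target Axin2 fell 1.47-fold and 1.32-fold. These 3 of 38 genes (1 higher, 2 lower) were called, against 0.851% of all genes (0.518% higher, 0.332% lower). Wnt8a had 55.5 and 59.0 CPM with LG268, against 24.2 and 24.7 CPM in control cells (log2 difference 1.23 ± 0.109, adjusted p = 2.75e-06). Both LG268 libraries stood above both control libraries, and the call held in all 13 other settings tried. Wnt3 had 32.9 and 29.6 CPM with LG268, against 45.9 and 45.9 CPM in control cells (adjusted p = 0.039). Axin2 had 42.7 and 38.9 CPM with LG268, against 55.7 and 52.2 CPM in control cells (adjusted p = 0.0232). Wnt8a, Wnt3 and Axin2 were among 21 of 38 genes whose groups did not overlap here. With GW3965, where none was called, there were 18. The share over all genes was not counted, so these gaps add no support. The call of Wnt3 ended without any 1 of the 4 libraries (adjusted p = 0.275 and 0.234 without control replicates 1 and 2, and 0.154 and 0.451 without LG268 replicates 1 and 2). That of Axin2 ended likewise (0.293 and 0.0747, and 0.0709 and 0.349), so that 1 of 38, Wnt8a, was called without any 1 of them. None of the 10 Frizzled receptors and none of the secreted inhibitors was called, and Fzd7 differed by -0.02 ± 0.0776 on the log2 scale.

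Wnt8a made up 56.4% ± 3.0 of the summed ligand level per kb with LG268, against 32.4% ± 0.25 in control cells, and Wnt3 17.5% ± 1.1, against 34.6% ± 0.73 (SD, n = 2 each). The summed ligand level was 58.1 ± 0.561 CPM per kb with LG268, against 43.2 ± 0.933 in control cells. No test was run on these sums.

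Among other genes of the pathway, 3 of 18 canonical target genes fell with LG268 and 0 rose. The median log2 difference of the 18 was -0.17, against -0.0018 over all genes. With GW3965 that median was -0.11 and 0 of the 18 were called. LG268 against GW3965 called 0 of the 18 as well (median -0.08), against 0.6% of all genes, so these targets are not shown to differ between the ligands. T (Brachyury), a mesoderm factor and Wnt target, averaged 115 ± 6.68 CPM with LG268, against 180 ± 8.32 CPM in control cells (adjusted p = 0.0277). Myc, a growth regulator, and Tnfrsf19, a receptor of the TNF family, were the others (log2 -0.52 ± 0.123 and -0.43 ± 0.0928, adjusted p = 0.0499 and 0.027). Calls of T, Myc, Tnfrsf19 and the other listed genes of this paragraph were not checked by leaving out a library. In the same comparison the calls of Wnt3 and Axin2 (adjusted p = 0.039 and 0.0232) ended when any library compared was left out. Whether the falls of these targets rest on a single library was therefore not tested. Porcn, the enzyme that puts the lipid on Wnt proteins before they are secreted, rose 1.61-fold (23.5 ± 1.1 CPM with LG268, against 14.6 ± 0.626 CPM in control cells, adjusted p = 0.000454). Of the 18 intracellular components, the 9 genes of the R-spondin and receptor turnover branch and 12 other inhibitors tested, none was called. Mesoderm markers, a list that also holds T, were lower in 3 of 6 genes and higher in 0, against 0.851% of all genes called. Their sum was 163 and 148.7 CPM with LG268, against 267.9 and 245.9 CPM in control cells. With GW3965 it was 217.9 and 211.8 CPM, and LG268 against GW3965 called 0 of the 6 markers. T made up most of that sum with LG268 and in control cells, so the mesoderm and canonical target lists are not separate results. The part of these markers in the result was not tested. In such bulk samples fewer cells of a type and less RNA per cell cannot be told apart.

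With both ligands Wnt8a again rose and 6 genes fell, which is 7 of 38, against 11.3% of all genes called (4.83% higher, 6.47% lower). Wnt8a had 50.2 and 48.1 CPM with both ligands, against 24.2 and 24.7 CPM in control cells (2.01-fold, adjusted p = 1.09e-05). Wnt3 had 19.3 and 26.9 CPM, against 45.9 and 45.9 CPM in control cells (1.98-fold lower, adjusted p = 7.62e-05). The ligand Wnt5a had 5.11 and 5.35 CPM, against 12.1 and 9.64 CPM in control cells (2.07-fold lower, adjusted p = 0.00112). Both libraries of one group lay outside the range of the other in 20 of the 38 genes, so such gaps add no support. The share over all genes was not counted. The receptor Fzd7 had 92.4 and 103 CPM with both ligands, against 117 and 119 CPM in control cells (log2 -0.27 ± 0.0789, adjusted p = 0.0296). The receptor Fzd8 had 3.54 and 4.56 CPM, against 7.30 and 6.32 CPM in control cells (log2 -0.74 ± 0.188, adjusted p = 0.0146). Axin2 had 34.4 and 41.2 CPM, against 55.7 and 52.2 CPM in control cells (1.43-fold lower, adjusted p = 0.000824). The ligand Wnt3a was near the floor, with 2 counts over both libraries with both ligands and 32 in control cells (12.28-fold lower, 95% counting interval 3.133 to 105.7).

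The both-ligand libraries differed from each other in several of these genes, with Wnt3 at 19.3 and 26.9 CPM. Calls ended for Fzd7 and Fzd8 without both-ligand replicate 1 (adjusted p = 0.259 and 0.171) or control replicate 1 (0.116 and 0.118), for Fzd7 without control replicate 2 (0.144), and for Wnt3a without both-ligand replicate 2 or control replicate 1 (0.106 and 0.176). In a fit of the groups compared alone 3 of 38 were called, and Axin2, Fzd7 and Fzd8 were not (adjusted p = 0.0561, 0.114 and 0.097). In all, 7 and 9 genes were called without both-ligand replicates 1 and 2, 4 without control replicate 1 and 6 without control replicate 2. The calls of Wnt8a, Wnt3 and Wnt5a held in the 12 other settings tried. Over all genes 829 were higher and 1110 lower; with DESeq2 size factors these were 1000 and 923, while the 38 split 1 higher and 6 lower under both.

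With both ligands 11.3% of all genes were called. Mesoderm markers, a list that includes T, were lower in 4 of 6 genes and higher in 0 (sums of 148.6 and 146.6 CPM, against 267.9 and 245.9 CPM in control cells). Pluripotency markers were lower in 3 of 10 and higher in 0 (1913 and 1939 CPM, against 2062 and 2080 CPM). Their part in the result was not tested.

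**Figure D2:**
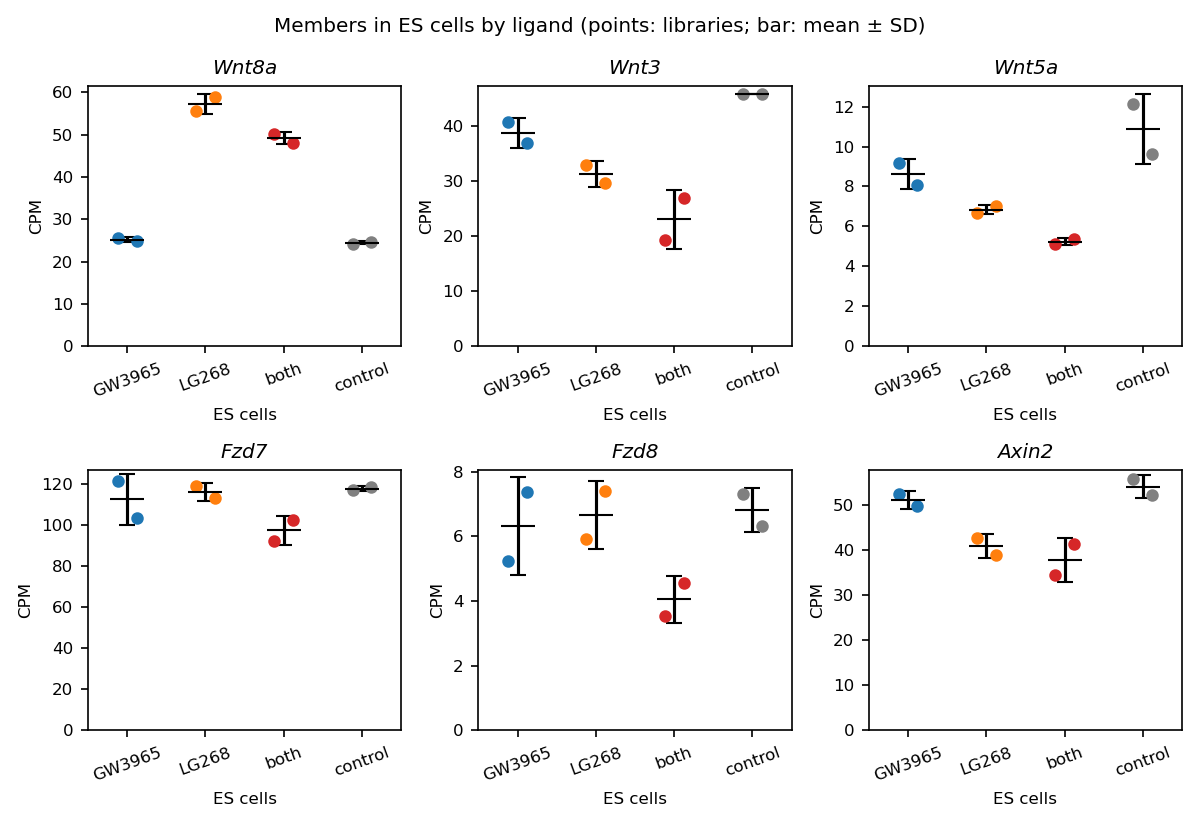
CPM in each ES library (points; bars show the mean ± SD, n = 2) for Wnt8a, Wnt3, Wnt5a, Fzd7, Fzd8 and Axin2, with GW3965, LG268, both ligands and in control cells. Wnt8a lies between 48.1 and 59.0 CPM in the 4 libraries that received LG268 and between 24.2 and 25.6 CPM in the 4 that did not.

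Set against each other, LG268 and GW3965 differed in Wnt8a: it had 55.5 and 59.0 CPM with LG268, against 25.6 and 24.9 CPM with GW3965 (2.27-fold, adjusted p = 4.45e-06). That was 1 of 38 called, against 0.6% of all genes (0.285% higher, 0.315% lower). For Axin2 the log2 difference between the same groups was -0.32 ± 0.0844 and for Wnt3 -0.31 ± 0.126 (adjusted p = 0.111 and 0.45), so these 2 genes are not shown to differ between the ligands. Both ligands against GW3965 alone called 8 of 38, against 10.7% of all genes (3.68% higher, 6.98% lower). Wnt8a (log2 0.96 ± 0.109) and Fzd3 (0.37 ± 0.0888) were higher with both, and Wnt3 (-0.75 ± 0.131), Wnt5a (-0.74 ± 0.187), Fzd8 (-0.60 ± 0.188), Fzd2 (-0.58 ± 0.132), Axin2 (-0.43 ± 0.0864) and Fzd5 (-0.39 ± 0.0886) were lower. Without both-ligand replicate 1, or without GW3965 replicate 1, 3 of 38 were called, and without GW3965 replicate 2, 7; Wnt8a and Wnt3 were called under each. In a fit of the groups compared alone 1 of 38, Wnt8a, was called. The comparisons of the ES groups share libraries and so are not independent.

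Both ligands against LG268 alone called 1 of 38, against 4.21% of all genes (1.63% higher, 2.57% lower). Fzd8 had 3.54 and 4.56 CPM with both ligands, against 5.91 and 7.39 CPM with LG268 alone (log2 -0.70 ± 0.189, adjusted p = 0.0403). The call ended without LG268 replicate 1 or 2 or without both-ligand replicate 1 (adjusted p = 0.0765, 0.302 and 0.42). Wnt8a had 50.2 and 48.1 CPM with both ligands, against 55.5 and 59.0 CPM with LG268 alone, a log2 difference of -0.22 ± 0.106 that missed the threshold (adjusted p = 0.267). In the comparison of both ligands with control cells 11.3% of all genes were called (4.83% higher, 6.47% lower). Canonical targets split 0 higher and 6 lower of 18 there. Among these Nkd1, a feedback inhibitor, averaged 6.77 ± 1.63 CPM with both ligands, against 12.6 ± 0.434 CPM in control cells, and Lef1 averaged 8.88 ± 0.725 CPM, against 15.9 ± 1.23 CPM (adjusted p = 0.000653 and 0.015). Porcn averaged 24.4 ± 0.747 CPM with both ligands, against 14.6 ± 0.626 CPM in control cells (1.68-fold, adjusted p = 6.03e-05).

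The leading ligands changed in the differentiated cultures. From the ES control to day 8, 20 of 38 genes rose and 9 fell, a share near that of all genes (78.7% called, 39.7% higher and 39.1% lower); the median log2 difference of the 38 was 0.82, against 0 over all genes. From day 8 to day 16, 18 rose and 10 fell, against 61.6% of all genes called (29.4% higher, 32.2% lower), and the medians were 0.74 and -0.04. With DESeq2 size factors 20 rose and 8 fell at this step. From day 16 to day 17, 16 rose and 3 fell, against 56.2% of all genes called (26.8% higher, 29.5% lower), with medians of 0.35 and -0.02. Fzd1, Fzd4, Sfrp1 and Wnt5a rose at all 3 steps; the share of all genes that did so was not counted. Values below are in CPM for the 2 libraries of the ES control, day 8, day 16 and day 17, in that order.

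**Figure D3:**
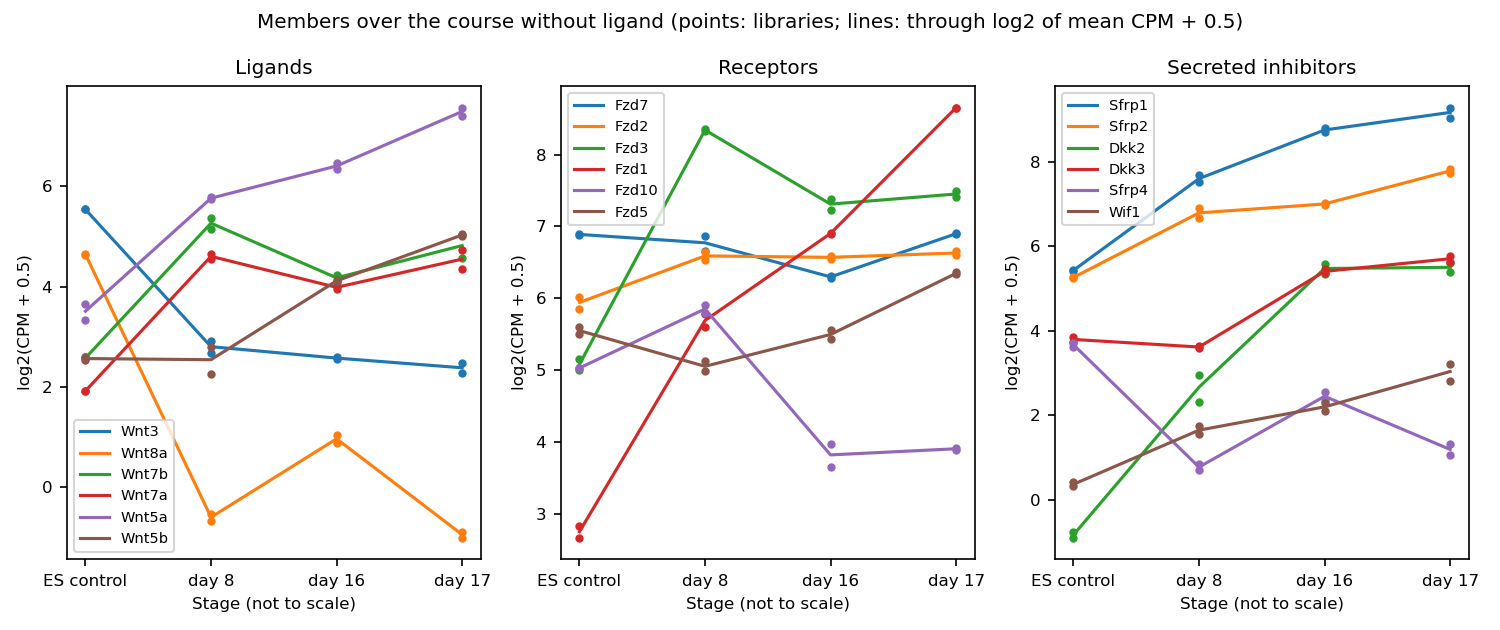
Level of 6 ligands, 6 receptors and 6 secreted inhibitors as log2(CPM + 0.5) (points for libraries, lines through the group means) in the ES control, at day 8, day 16 and day 17 without ligand; the stages are evenly spaced, not to scale. Wnt8a and Wnt3 fall after the ES stage, Fzd3 and Wnt7b peak at day 8, and Fzd1, Sfrp1 and Wnt5a are highest at day 17.

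The 3 leading ligands of ES cells fell at day 8. Wnt8a had 24.2 and 24.7 CPM in ES cells, 0.193 and 0.131 at day 8, 1.56 and 1.35 at day 16, and 0.0427 and 0 at day 17. It fell 149-fold at day 8 (adjusted p = 3.78e-16), rose 8.79-fold at day 16 (adjusted p = 3.01e-07) and fell again at day 17, where 1 count was left over both libraries, against 87 at day 16 (58.24-fold lower, 95% counting interval 10.18 to 2326). Wnt3 had 45.9 and 45.9 CPM in ES cells, 7.08 and 5.88 at day 8, 5.56 and 5.37 at day 16, and 4.35 and 5.07 at day 17. It fell 7.11-fold at the first step and passed no test later. Wnt9a, a canonical ligand, had 16.6 and 18.6, 5.53 and 7.12, 23.9 and 30.0, and 27.5 and 27.8 CPM: it fell 2.77-fold at day 8 and rose 4.25-fold at day 16, where both libraries stood above those of ES cells. At day 16 mesoderm markers stood at 17.66 and 10.88 CPM in sum, against 2.708 and 2.417 CPM at day 8 with Mesp1 at 0. T, which made up most of the day 16 sum, rose beside Wnt8a (10.2 ± 4.39 CPM at day 16, against 0.227 ± 0.048 CPM at day 8). The part of these markers in the Wnt8a value was not tested.

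The ligands Wnt7a and Wnt7b, known in the nervous system for vessel ingrowth and synapse formation, rose at day 8, fell at day 16 and rose again at day 17. Wnt7b had 5.41 and 5.53 CPM in ES cells, 40.9 and 35.0 at day 8, 18.2 and 16.9 at day 16, and 32.0 and 23.4 at day 17. It rose 6.92-fold, fell 2.16-fold and rose 1.59-fold (adjusted p = 1.26e-11, 4.08e-06 and 0.00128). Wnt7a had 3.30 and 3.28, 24.6 and 22.9, 15.7 and 15.0, and 25.9 and 19.9 CPM, with the same 3 calls (7.22-fold higher, 1.55-fold lower, and higher by 0.59 on the log2 scale). The day 17 calls ended without day 17 replicate 1 (adjusted p = 0.0621 for Wnt7b and 0.139 for Wnt7a). Wnt4, a ligand of kidney and spinal cord, followed the same course, with 4.57 and 6.60, 20.3 and 23.3, 16.1 and 15.7, and 23.1 and 20.5 CPM. Its fall at day 16 ended without day 16 replicate 2 or day 8 replicate 2 (adjusted p = 0.0775 and 0.128), and its rise at day 17 without day 16 replicate 1 or 2 or day 17 replicate 1 (0.0623, 0.0947 and 0.146). Day 17 was not tested against day 8, and for Wnt7a and Wnt4 the libraries of those stages overlapped. Summed neuronal markers were highest at day 8 (3391 and 3435 CPM, against 392.2 and 398.1 in ES cells), and lower at day 16 (1744 and 1730 CPM); their part was not tested.

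Wnt1 had no count in ES cells, 4.33 and 3.496 CPM at day 8, 1.85 and 1.18 at day 16, and 2.56 and 1.98 at day 17. It was at least 62.14-fold higher at day 8 than in ES cells (219 counts against 0, the floor being 3 counts over both libraries) and fell 2.61-fold at day 16 (adjusted p = 0.00393). The fall ended without day 16 replicate 2 (adjusted p = 0.0588). Wnt10a, a ligand of skin and tooth, was at least 3.405-fold higher at day 8 (12 counts against 0); that call ended without ES control replicate 1 or 2 or day 8 replicate 1 (adjusted p = 0.109, 0.123 and 0.131).

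Wnt5a, a ligand of the branch without beta-catenin, held the largest share of the summed ligand level at days 16 and 17. Wnt5a had 12.1 and 9.64 CPM in ES cells, 53.1 and 54.3 at day 8, 80.2 and 88.0 at day 16, and 169 and 189 at day 17. Each step was a rise (4.95-fold, 1.57-fold and 2.12-fold, adjusted p = 2.38e-12, 4.39e-05 and 4.42e-08). Wnt5b, its close relative, had 5.27 and 5.57, 4.25 and 6.40, 17.0 and 16.6, and 31.8 and 32.4 CPM; it passed no test at day 8 and rose 3.13-fold and 1.91-fold after it. Wnt11, of the same branch, rose 2.76-fold and 1.99-fold, with 1.54 and 1.74, 4.87 and 4.21, 8.31 and 9.64, and 12.04 and 11.78 CPM. Per kb, Wnt7b (20.1%), Wnt7a (19.5%) and Wnt5a (17.9%) held the largest shares of the summed ligand level at day 8. At day 16 Wnt5a held 22.8%, Wnt9a 17.15% and Wnt5b 13.45%. At day 17 Wnt5a held 32.6%, Wnt5b 17.22% and Wnt9a 11.82%. Summed mesenchyme markers (8 genes, collagens and Postn among them) were 128.7 and 132.4 CPM in ES cells, 1500 and 1769 at day 8, 10010 and 11440 at day 16, and 8287 and 9203 at day 17; their part in these rises was not tested.

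Several ligands stayed under 2 CPM. Wnt16 had 0.747 and 0.948, 0.155 and 0.0327, 1.15 and 1.54, and 0.982 and 0.933 CPM, with a fall at day 8 and a rise at day 16 (adjusted p = 6.33e-05 and 4.72e-06). Wnt2 had 10 counts over both ES libraries and 1 at day 8 (11.75-fold lower, interval 1.671 to 509.9), and 46 at day 16 (42.84-fold higher than day 8, interval 7.316 to 1729). The fall ended without ES control replicate 2, day 8 replicate 1 or day 8 replicate 2 (adjusted p = 0.189, 0.139 and 0.0508). Wnt10b fell 4.12-fold at day 8, with 0.271 and 0.229 CPM, against 1.01 and 1.07 CPM in ES cells (adjusted p = 0.00361). Wnt8b had 0.247 and 0.881 CPM at day 16, against 0.193 and 0.098 CPM at day 8, and 0.128 and 0.117 CPM at day 17, against day 16; neither call held without day 16 replicate 2 (adjusted p = 0.586 and 0.524), without day 8 replicate 1 or 2 (0.0617 and 0.199) or without day 17 replicate 1 or 2 (0.149 and 0.125). Wnt9b had 0.165 and 0.0826 CPM at day 16, against 0.193 and 0.784 CPM at day 8, and its call ended without day 16 replicate 1 or 2 or day 8 replicate 2 (adjusted p = 0.0722, 0.249 and 0.636).

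4 pairs of these ligand genes lie side by side in mm10 coordinates of GENCODE M21, and partners differed in level. Wnt3a (11:59248033-59290752, minus strand) and Wnt9a (11:59306928-59333552, plus strand) start 16.2 kb apart. Wnt9a reached 23.9 and 30.0 CPM at day 16, where Wnt3a had 1.52 and 0.798 CPM. Wnt9b (11:103727364-103749821) and Wnt3 (11:103774150-103817957) lie 24.3 kb apart; in ES cells Wnt9b had 0.396 and 0.277 CPM and Wnt3 45.9 and 45.9 CPM. Wnt10b and Wnt1 on chromosome 15 lie 11.7 kb apart, and at day 8 Wnt10b fell and Wnt1 was counted for the first time. Wnt6 and Wnt10a on chromosome 1 lie 6.19 kb apart, and both stayed under 4 CPM in every library.

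All 10 Frizzled receptors were detected at every stage, and their order changed. Fzd1 had 6.59 and 5.85 CPM in ES cells, 47.8 and 54.4 at day 8, 120 and 118 at day 16, and 402 and 401 at day 17. It rose 8.23-fold, 2.33-fold and 3.38-fold (adjusted p = 3.99e-16, 5.99e-11 and 1.4e-13). Per kb it made up 46.7% ± 0.5 of the summed receptor level at day 17, where Fzd2, the next, made up 13.1% ± 0.16. Fzd3, needed for axon guidance, peaked at day 8: 35.0 and 31.6, 326 and 321, 166 and 150, and 169 and 180 CPM. It rose 9.74-fold and then fell 2.05-fold (adjusted p = 7.75e-18 and 4.65e-10).

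Fzd10 had 32.0 and 32.2 CPM in ES cells, 59.2 and 55.1 at day 8, 15.2 and 12 at day 16, and 14.6 and 14.3 at day 17. It rose 1.78-fold and then fell 4.24-fold, the steepest fall of a receptor at day 16 (adjusted p = 1.69e-11). Fzd9 had 3.43 and 3.63, 2.51 and 2.97, 9.79 and 7.38, and 18.1 and 16.9 CPM, and rose 3.09-fold and 2.05-fold at the later steps. Fzd5 and Fzd6 fell at day 8 and rose at both later steps. Fzd6 had 20.97 and 21.77, 13.8 and 14.5, 23.9 and 26.5, and 39.2 and 43.5 CPM, and Fzd5 had 44.8 and 47.7, 34.2 and 31.1, 46.4 and 42.7, and 81.6 and 80.0 CPM. Fzd7, the first receptor of ES cells per kb, had 117 and 119, 117 and 101, 78.9 and 77.2, and 118 and 119 CPM. It passed no test at day 8, fell 1.39-fold at day 16 and rose 1.52-fold at day 17 (adjusted p = 2.58e-05 and 1.61e-06). At day 17, 7 of 10 receptors rose and 0 fell, against 56.2% of all genes called (26.8% higher, 29.5% lower).

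Astrocyte markers also changed at the steps of the later receptor and inhibitor rises. Of 6 genes 5 rose and 0 fell at day 16, against 61.6% of all genes called (29.4% higher, 32.2% lower). At day 17, 4 rose and 2 fell, against 56.2% of all genes called (26.8% higher, 29.5% lower). The astrocyte markers summed to 581.4 and 587.7 CPM in ES cells, with S100b at 0, 226.2 and 221.3 at day 8, 1021 and 1051 at day 16, and 2933 and 3292 at day 17. Their part in the values of Fzd1, Sfrp1 and the Dkk genes was not tested.

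The secreted inhibitors grew most in sum: 35.9 ± 0.132 CPM per kb in ES cells, 106 ± 0.789 at day 8, 188 ± 5.56 at day 16 and 267 ± 10.6 at day 17 (SD, n = 2 each). The ligands summed to 43.2 ± 0.933, 38.4 ± 0.201, 47.1 ± 1.44 and 70.3 ± 1.56 CPM per kb at the same stages. The receptors summed to 71.4 ± 1.68, 118 ± 0.84, 110 ± 3.36 and 205 ± 1.81 CPM per kb. These sums carry no test.

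**Figure D4:**
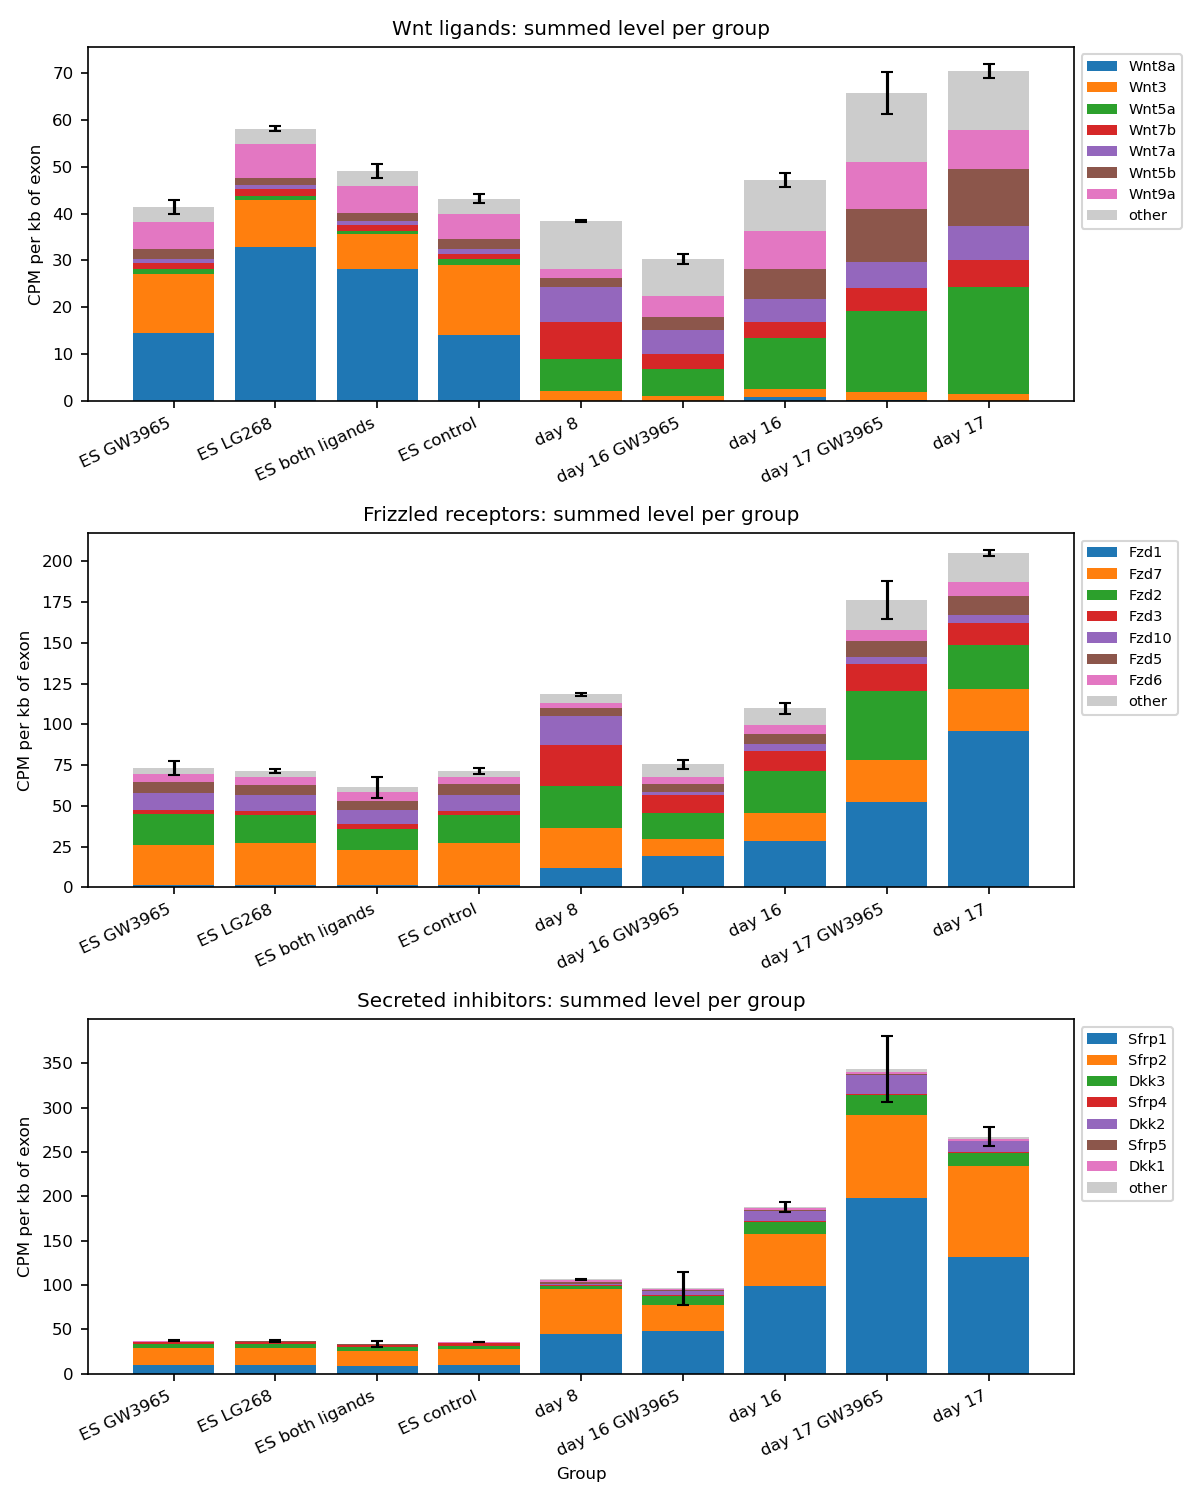
Summed CPM per kb of exon of the ligands, receptors and secreted inhibitors in each group, stacked by gene, with the SD of the sum over 2 libraries as the error bar. Wnt8a fills 56.4% of the ligand bar with LG268, Wnt5a 32.6% of it at day 17, and Fzd1 46.7% of the receptor bar at day 17.

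Sfrp1 had 42.9 and 42.5 CPM in ES cells, 183 and 204 at day 8, 417 and 445 at day 16, and 527 and 623 at day 17. It rose 4.54-fold, 2.22-fold and 1.33-fold (adjusted p = 3.03e-11, 4.14e-07 and 0.0116). The last call ended without day 16 replicate 1 or day 17 replicate 2 (0.0676 and 0.143). Sfrp2 had 37.54 and 38.33, 119 and 102, 126 and 130, and 229 and 212 CPM; it rose 2.90-fold at day 8 and 1.72-fold at day 17. Dkk2 was almost absent from ES cells (3 counts over both libraries) and had 4.49 and 7.22 CPM at day 8, 40.2 and 47.8 at day 16, and 48.5 and 41.3 at day 17. It was 95.62-fold higher at day 8 (interval 32.44 to 466) and rose 7.45-fold at day 16 (adjusted p = 4.39e-11). Dkk3, a Dickkopf relative with no settled place in the pathway, had 13.9 and 12.9, 11.6 and 11.99, 43.3 and 40.6, and 49.3 and 54.2 CPM, and rose 3.55-fold at day 16. Its rise at day 17 ended without day 16 replicate 2 or day 17 replicate 2 (adjusted p = 0.0544 and 0.0712).

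Sfrp5 was transient, with 0.571 and 1.11, 4.95 and 5.10, 1.44 and 1.18, and 0.512 and 1.40 CPM; it rose 5.90-fold at day 8 and fell 3.85-fold at day 16 (adjusted p = 2.03e-05 and 0.000296). At day 8 Sfrp4 fell, while the other 3 Sfrp genes rose. It had 12.7 and 11.8 CPM in ES cells, 1.12 and 1.31 at day 8, 5.35 and 4.60 at day 16, and 2.01 and 1.57 at day 17, and it fell 9.99-fold, rose 4.04-fold and fell 2.72-fold (adjusted p = 2.25e-12, 4.7e-08 and 3.78e-06). Wif1 had 0.835 and 0.751, 2.44 and 2.84, 4.40 and 3.80, and 6.57 and 8.86 CPM, and rose 3.33-fold at day 8 and 1.88-fold at day 17. The day 17 rise ended without day 16 replicate 2 or day 17 replicate 2 (adjusted p = 0.0562 and 0.083). Axin2 varied little, with 55.7 and 52.2, 54.0 and 54.6, 48.6 and 44.5, and 51.6 and 50.1 CPM. Its fall of 1.17-fold at day 16 (adjusted p = 0.0236) ended with DESeq2 size factors (0.0598) and without day 16 replicate 2 or day 8 replicate 2 (0.149 and 0.0592).

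Around these genes, 7 of 18 canonical targets rose and 9 fell at day 8, where 78.7% of all genes were called. T averaged 0.227 ± 0.048 CPM at day 8, against 180 ± 8.32 CPM in ES cells, and Lgr5, a receptor for R-spondins, 19.6 ± 2.56 CPM, against 0.481 ± 0.0656 CPM (log2 -9.58 ± 0.296 and 5.34 ± 0.238). Of 12 other inhibitors tested 8 rose and 4 fell. Among them Frzb (Sfrp3) averaged 37.4 ± 1.2 CPM at day 8, against 1.66 ± 0.508 CPM in ES cells, and Draxin, an axon guidance protein that also binds Lrp6, 26.7 ± 1.88 CPM, against 0.936 ± 0.0179 CPM. At day 16, 4 of 9 R-spondin and turnover genes rose and 1 fell, against 61.6% of all genes called. R-spondins strengthen Wnt signals, and Rspo1 averaged 27.4 ± 0.545 CPM at day 16, against 7.32 ± 0.922 CPM at day 8, and Rspo3 38.7 ± 3.2 CPM, against 14.9 ± 1.2 CPM. Wls, which carries Wnts to the cell surface, rose 2.14-fold at day 16 (258 ± 5.01 CPM at day 16, against 120 ± 5.44 CPM at day 8).

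With GW3965 at day 16, ligands, receptors and inhibitors were lower. Of 38 genes 21 fell and 0 rose, against 31.7% of all genes called (13.0% higher, 18.7% lower); the median log2 difference was -0.57 for the 38 and -0.03 over all genes. The fall took in 8 of 19 ligands, 7 of 10 receptors, 5 of 8 inhibitors and Axin2. In a fit of the groups compared alone 18 were called, and Wnt11, Fzd6 and Dkk3 were not (adjusted p = 0.065, 0.0885 and 0.0503). The 2 GW3965 libraries stood apart from each other (above), and the count was 21 and 17 without replicates 1 and 2 of GW3965, and 17 and 18 without day 16 replicates 1 and 2.

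Among the ligands, Wnt8a had no count in the GW3965 libraries, against 1.56 and 1.35 CPM at day 16 without it (at least 31.44-fold lower, 0 counts against 87). Wnt1 had 0.0908 and 0.337 CPM with GW3965, against 1.85 and 1.18 CPM without (6.87-fold lower, adjusted p = 0.000531). Wnt3a, the ligand most used to switch on the canonical branch in culture, had 0.121 and 0.276 CPM, against 1.52 and 0.798 CPM (5.61-fold lower, adjusted p = 0.00271). These 3 were low in level in both groups. Wnt5b had 8.59 and 7.01 CPM with GW3965, against 17.0 and 16.6 CPM without (2.15-fold lower, adjusted p = 4.17e-05). Wnt5a had 49.4 and 39.0 CPM, against 80.2 and 88.0 CPM (1.90-fold lower, adjusted p = 3.46e-06). Wnt9a, Wnt3 and Wnt11 fell 1.83-fold, 1.49-fold and 1.46-fold. The calls of the last pair ended without day 16 replicate 2 (adjusted p = 0.0588 for Wnt3 and 0.187 for Wnt11) or GW3965 replicate 2 (0.0718 and 0.243), and that of Wnt3 also without day 16 replicate 1 (0.0645). Wnt7a and Wnt7b passed no test: Wnt7a had 16.1 and 15.8 CPM with GW3965, against 15.7 and 15.0 CPM, and Wnt7b 15.8 and 15.8 CPM, against 18.2 and 16.9 CPM.

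Among the receptors, Fzd10 had 6.17 and 4.81 CPM with GW3965, against 15.2 and 12 CPM without (2.45-fold lower, adjusted p = 1e-06). Fzd7 had 46.3 and 48.7 CPM, against 78.9 and 77.2 CPM (1.64-fold lower), and Fzd2 had 61.4 and 53.8 CPM, against 96.0 and 92.8 CPM (1.64-fold lower). Fzd1 and Fzd4 fell 1.47-fold and 1.48-fold. Fzd5 and Fzd6 fell 1.27-fold and 1.23-fold, calls that ended without GW3965 replicate 2 or day 16 replicate 1 for Fzd5 (adjusted p = 0.109 and 0.0623), and without GW3965 replicate 1 or day 16 replicate 2 for Fzd6 (0.197 and 0.239). Fzd3 was not called, with 146 and 141 CPM, against 166 and 150 CPM.

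Among the inhibitors, Sfrp1 had 253 and 170 CPM with GW3965, against 417 and 445 CPM without (2.04-fold lower, adjusted p = 9.1e-06). Sfrp2 had 66.7 and 58.3 CPM, against 126 and 130 CPM (2.04-fold lower, adjusted p = 2.03e-07). Dkk2 had 20.5 and 14.6 CPM, against 40.2 and 47.8 CPM (2.51-fold lower, adjusted p = 2.82e-06). Called genes were picked for printing by groups that did not overlap, so the gaps between these libraries add no support. Dkk1, the secreted antagonist of Lrp5 and Lrp6 that is itself a Wnt target, and Dkk3 fell 2.00-fold and 1.23-fold; these calls ended without day 16 replicate 1 (adjusted p = 0.253 and 0.114) or GW3965 replicate 2 (0.21 and 0.162). Axin2 had 34.7 and 31.5 CPM, against 48.6 and 44.5 CPM (1.40-fold lower, adjusted p = 0.000161). The inhibitors summed to 96.1 ± 18.6 CPM per kb with GW3965, against 188 ± 5.56 without.

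Canonical targets split 0 higher and 9 lower of 18 in the same comparison (31.7% of all genes called), with a median log2 difference of -0.68. T averaged 0.121 ± 0.171 CPM with GW3965, against 10.2 ± 4.39 CPM without (log2 -6.28 ± 0.448). Nkd1, Tcf7 (a TCF factor) and Lgr5 fell 1.90-fold, 1.88-fold and 1.78-fold. Of 8 co-receptor and secretion genes 7 fell and 1 rose; Ror2, the receptor tyrosine kinase used by Wnt5a, averaged 27.1 ± 3.18 CPM with GW3965, against 50.3 ± 0.842 CPM without. Rspo1 fell 2.20-fold and Rspo3 1.60-fold. In their list 3 of 9 were lower and 0 higher, a share near the 31.7% of all genes called (13.0% higher, 18.7% lower). Markers of other cells moved in the same libraries. Mesenchyme markers were lower in 8 of 8 genes (sums of 5846 and 4638 CPM with GW3965, against 10010 and 11440 CPM without). Astrocyte markers were lower in 5 of 6. Mesoderm markers, a list that includes T, were lower in 3 of 6 (2.39 and 1.837 CPM, against 17.66 and 10.88 CPM, with Gsc at 0 with GW3965). Pluripotency markers were lower in 6 of 10 and higher in 1 (121.5 and 133.4 CPM, against 184.4 and 164.2 CPM). Neuronal markers were higher in 8 of 8 (2801 and 2606 CPM, against 1744 and 1730 CPM), and neural progenitor markers lower in 7 of 8. The part of these cells in the changes above was not tested.

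At day 17 the direction was mixed: 9 of 38 genes rose with GW3965 and 4 fell, against 35.2% of all genes called (17.2% higher, 18% lower). The medians were 0.12 for the 38 and 0.02 over all genes. The count was 10 or 11 without any 1 library. No gene was higher at day 16 with GW3965, and 5 that were lower there were higher at day 17: Wnt8a, Fzd2, Sfrp1, Dkk2 and Dkk3. Wnt5a, Fzd1, Fzd5 and Fzd6 were lower at both stages, and 12 were lower at day 16 with no call at day 17. The share of all genes with each of these pairs of calls was not counted, so they are not shown to be particular to these genes.

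Among the inhibitors, Dkk2 had 79.6 and 78.3 CPM with GW3965 at day 17, against 48.5 and 41.3 CPM without (1.75-fold, adjusted p = 0.000324). Sfrp1 had 986 and 741 CPM, against 527 and 623 CPM (1.502-fold, adjusted p = 0.00184; 0.059 without GW3965 replicate 1). Dkk3 had 78.7 and 74.2 CPM, against 49.3 and 54.2 CPM (1.48-fold, adjusted p = 3.19e-05). Sfrp4 had 3.71 and 4.25 CPM, against 2.01 and 1.57 CPM (2.19-fold, adjusted p = 0.000314). As at day 16, groups that did not overlap were a condition for printing these values. Sfrp2 was not called, with 197 and 209 CPM, against 229 and 212 CPM. The inhibitors summed to 343 ± 37.1 CPM per kb with GW3965, against 267 ± 10.6 without.

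Among the receptors, Fzd2 had 173 and 135 CPM with GW3965, against 97.0 and 100 CPM without (1.57-fold, adjusted p = 0.000398), and Fzd3 had 194 and 230 CPM, against 169 and 180 CPM (1.22-fold, adjusted p = 0.00647). Fzd1 had 234 and 206 CPM, against 402 and 401 CPM (1.82-fold lower, adjusted p = 2.27e-08). Its share of the summed receptor level per kb was 29.8% ± 0.67 with GW3965, against 46.7% ± 0.5 without. Fzd6 had 29.9 and 31.3 CPM, against 39.2 and 43.5 CPM (1.35-fold lower, adjusted p = 0.0021). Fzd5 had 69.1 and 66.8 CPM, against 81.6 and 80.0 CPM (1.19-fold lower, adjusted p = 0.0252). The call of Fzd3 ended without day 17 replicate 1 or GW3965 replicate 2 (adjusted p = 0.0784 and 0.196). That of Fzd5 ended without any 1 of the 4 libraries (0.108 and 0.0714 without day 17 replicates 1 and 2, 0.0616 and 0.118 without GW3965 replicates 1 and 2).

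Among the ligands, Wnt5a had 150 and 119 CPM with GW3965, against 169 and 189 CPM without (1.33-fold lower, adjusted p = 0.00537; 0.0737 without day 17 replicate 2 and 0.114 without GW3965 replicate 2). The 3 ligands that rose were near the floor. Wnt8a had 22 counts over the GW3965 libraries and 1 over the others (19.33-fold, 95% counting interval 3.125 to 797.8). Wnt8b, a ligand of the cortical hem, had 1.07 and 1.39 CPM, against 0.128 and 0.117 CPM (9.66-fold, adjusted p = 0.00452). Wnt2 had 1.43 and 0.925 CPM, against 0.427 and 0.175 CPM (3.68-fold, adjusted p = 0.0312); its call ended without day 17 replicate 1 or 2 or GW3965 replicate 1 (0.0532, 0.194 and 0.173). Axin2 was not called, with 55.2 and 54.5 CPM with GW3965, against 51.6 and 50.1 CPM without.

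Canonical targets at day 17 split 1 higher and 5 lower of 18, a share near the 35.2% of all genes called. Myc averaged 42.8 ± 0.545 CPM with GW3965, against 124 ± 19.5 CPM without, Nkd1 54.8 ± 7.77 CPM, against 89.0 ± 3.18 CPM, and Ccnd1, the cyclin that rose, 97.6 ± 25.8 CPM, against 66.3 ± 12 CPM. Wls and the Wnt receptor Ryk fell 1.40-fold and 1.30-fold among the co-receptor and secretion genes (0 higher and 3 lower of 8). Mesenchyme markers were 3 higher and 1 lower of 8 (sums of 9085 and 8252 CPM with GW3965, against 8287 and 9203 CPM without), neural progenitor markers 5 higher and 0 lower of 8, and astrocyte markers 1 higher and 4 lower of 6. Their part was not tested.

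**Figure D5:**
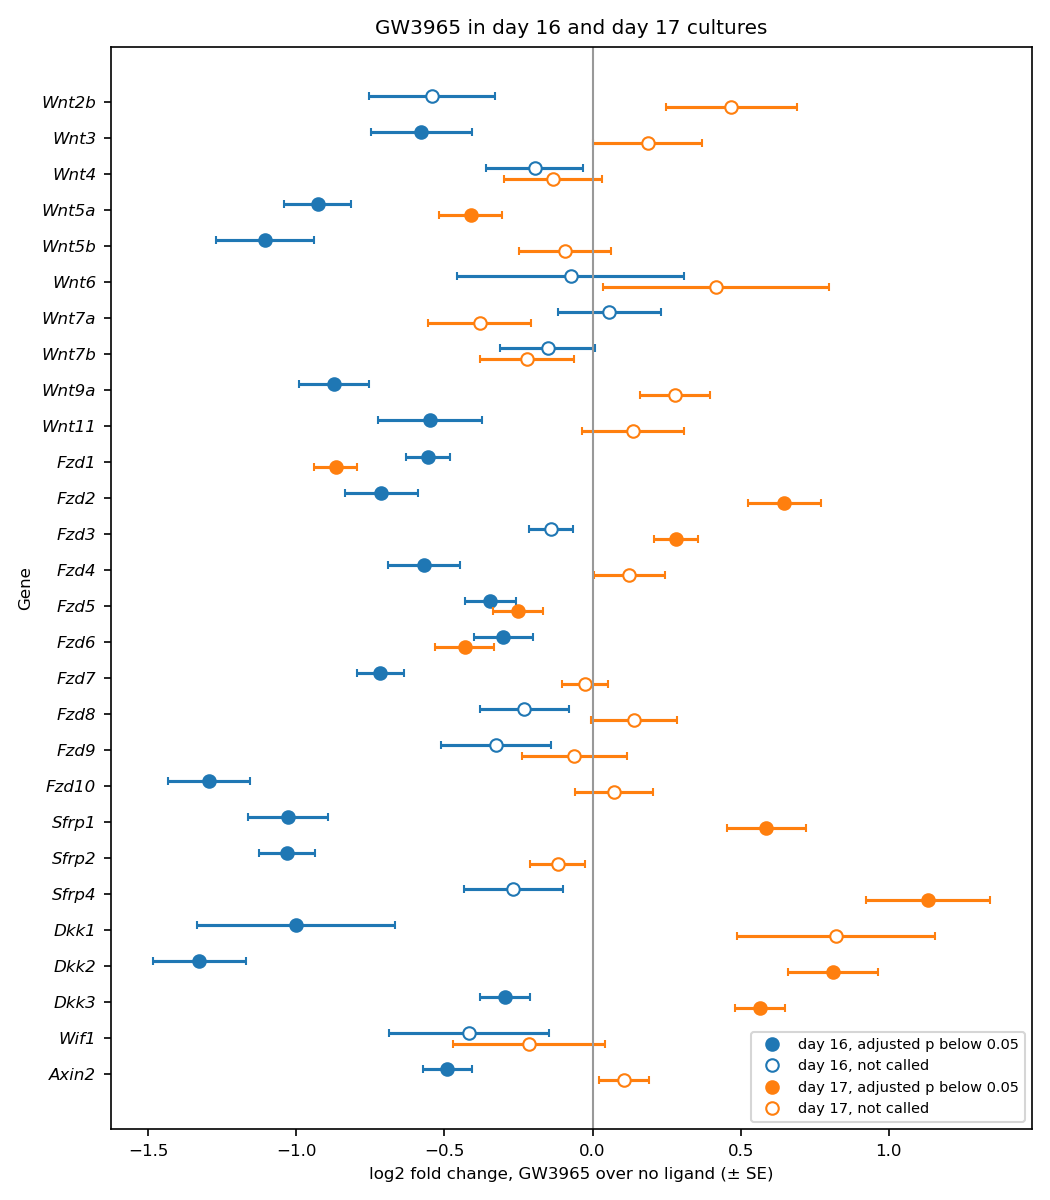
Log2 difference between GW3965 and no ligand (± SE) at day 16 and at day 17 for the 28 genes whose mean reached 3 CPM in some day 16 or day 17 group, a limit chosen after seeing the data. Most day 16 points lie below 0, while Dkk2, Fzd2, Sfrp1 and Dkk3 lie below 0 at day 16 and above 0 at day 17.

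The difference between the GW3965 responses was tested directly. Between day 17 and day 16 it was called for 24 of 38 genes, 23 of them more positive at day 17 and 1 (Fzd1) more negative, against 37.0% of all genes called (20% more positive, 17.0% more negative). The medians were 0.75 for the 38 and 0.03 over all genes. Dkk2 differed by 2.14 ± 0.217 on the log2 scale, Sfrp1 by 1.62 ± 0.189, Fzd10 by 1.37 ± 0.192, Fzd2 by 1.36 ± 0.175 and Wnt9a by 1.15 ± 0.167. The call of Fzd1 ended without day 16 replicate 2, day 17 replicate 2 or day 17 GW3965 replicate 2 (adjusted p = 0.0612, 0.0508 and 0.11). Each response was taken within files of 1 kind, but the stage, the length of dosing and the kind of file cannot be told apart between them. The response at day 16 was more negative than in ES cells for 11 of 38 genes and more positive for 0, against 14.8% of all genes called (9.89% more negative, 4.86% more positive). Sfrp2 differed by -1.22 ± 0.14, Fzd10 by -1.32 ± 0.181, Wnt5b by -1.13 ± 0.256 and Sfrp1 by -0.97 ± 0.203. The response at day 17 was more positive than in ES cells for 5 genes and more negative for 3, against 18.2% of all genes called (8.59% more positive, 9.65% more negative). Dkk3 differed by 0.72 ± 0.132 and Fzd1 by -0.63 ± 0.15.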

How the data were processed

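RNA-seq libraries (18, in 9 groups of 2) came with 1 table each of read counts per gene symbol, deposited by the authors. The submitters' processing notes name TopHat2 2.0.7, HTSeq 0.6.0, Cufflinks 2.0.2 and Cuffdiff 2.0.2 and the build mm10, with no order, strand setting or annotation. The 5 summary lines at the end of each file were kept out of library sizes; reads with no gene made up 42.14 to 65.92% and ambiguous ones 0.1011 to 0.2613%. The members and gene lists were chosen with earlier results of these data known. Genes passing filterByExpr (17166) entered 1 edgeR 4.0.16 quasi-likelihood fit of 9 groups (R 4.3.3, TMM factors 0.9124 to 1.108, 9 residual degrees of freedom) for 14 two-sided comparisons, adjusted by Benjamini-Hochberg over all genes and called below 0.05. CPM use TMM-scaled totals. Per-library values are given for all called genes where 12 or fewer were called, otherwise for the 8 largest rises and falls whose groups did not overlap. Exceptions are both ligands against GW3965 and the differences between responses, given as log2 differences, and genes with 3 counts or fewer in a group. The other lists name at most 4 called genes with a mean of 5 CPM or more. Where a group had 3 counts or fewer over its 2 libraries, a floor of 3 counts or an exact 95% interval was used, which covers counting error only. Lengths and positions came from GENCODE M21 (39 of 39 genes), promoters from RefSeq. Alternatives were no filter, 1 CPM in 4 libraries, DESeq2 1.42.0 size factors, its Wald test, limma-voom (limma 3.58.1), the groups compared alone, a replicate block, leaving out each library and, added after seeing the data, fits without the day 17 or the both-ligand libraries. The code was tested on simulated data.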

Additional observations from a re-analysis of the deposited data

Results flagged for a closer look

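All results below stand out because the GW3965 response of a gene, as a log2 difference between GW3965 and no ligand, differed between 2 stages by a test of that difference (edgeR, adjusted p below 0.05). Between day 16 and ES cells the difference was -8.26 for Wnt8a, -1.32 for Fzd10, -1.22 for Sfrp2, -1.13 for Wnt5b, -0.97 for Wnt9a, -0.97 for Sfrp1, -0.91 for Fzd2, -0.65 for Fzd7, -0.62 for Wnt5a, -0.47 for Fzd5 and -0.41 for Axin2. Those of Wnt5a, Fzd5 and Axin2 lost their call without 1 library (adjusted p up to 0.23, 0.0841 and 0.108).

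Between day 17 and ES cells it was 3.98 for Wnt8a, 1.31 for Sfrp4, 0.72 for Dkk3, 0.65 for Sfrp1, 0.41 for Fzd3, -0.37 for Fzd5, -0.55 for Fzd6 and -0.63 for Fzd1. Those of Sfrp1, Fzd3, Fzd5 and Fzd6 lost their call without 1 library (adjusted p up to 0.159, 0.112, 0.146 and 0.0732).

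Between day 17 and day 16 the ligands differed by 12.24 for Wnt8a, 3.52 for Wnt8b, 3.39 for Wnt3a, 2.90 for Wnt1, 2.66 for Wnt2, 1.15 for Wnt9a, 1.01 for Wnt5b, 1.01 for Wnt2b, 0.76 for Wnt3, 0.68 for Wnt11 and 0.52 for Wnt5a. The receptors differed by 1.37 for Fzd10, 1.36 for Fzd2, 0.69 for Fzd4, 0.69 for Fzd7, 0.42 for Fzd3 and -0.31 for Fzd1. The inhibitors differed by 2.14 for Dkk2, 1.82 for Dkk1, 1.62 for Sfrp1, 1.40 for Sfrp4, 0.91 for Sfrp2 and 0.86 for Dkk3, and Axin2 by 0.60. Those of Wnt2, Wnt2b, Wnt3, Wnt5a, Wnt8b, Wnt11 and Fzd1 lost their call without 1 library (adjusted p up to 0.0948, 0.0766, 0.117, 0.105, 0.215, 0.169 and 0.11). The values of Wnt8a, Wnt1, Wnt2, Wnt3a and Wnt8b rest on groups with few or no counts, and their size depends on the prior count of the fit.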

How the results depend on the processing

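Calls of single genes were compared between settings for the ligands, receptors, secreted inhibitors and Axin2 only, not for the other listed genes. No call of theirs turned its direction in any setting. Leaving out 1 library kept 714 of 864 calls of these genes and lost 150; the other settings kept 1413 of 1454 and lost 41. The number of genes called moved by over 1.5 times in 6 comparisons. For LG268 against ES control (3 called) the Wald test of DESeq2, a fit of the groups compared alone and a fit with no filter each gave 5, and leaving out any 1 library gave 1. For both ligands against ES control (7) it was 11 with no filter, 3 with only the groups compared and 4 to 9 without 1 library. For LG268 against GW3965 (1) it was 2 with no filter, 5 with only the groups compared and 2 without the both-ligand libraries. For both ligands against GW3965 (8) it was 1 with only the groups compared and 3 to 10 without 1 library. For both ligands against LG268 (1) it was 4 with no filter, 0 with DESeq2 size factors, 2 with the DESeq2 Wald test, 0 with only the groups compared, 0 without the day 17 libraries and 0 to 5 without 1 library. For the GW3965 response at day 17 minus in ES cells (8) it was 5 to 7 without 1 library. The cause was not tested. With DESeq2 size factors the split of all called genes was 952 higher and 938 lower for both ligands against GW3965 (632 and 1199 with TMM) and 359 and 351 against LG268 (280 and 442). Same-numbered libraries did not deviate together (36 pairs, correlation -0.1236 to 0.08839); the replicate block lost 2 of 173 calls, Wnt3 with LG268 against ES control (adjusted p = 0.0566) and Wnt9b at day 16 against day 8 (0.0581). Leaving out 1 of 2 libraries assumes that the lone one varies like those of the other groups. Genes under about 1 CPM rest on few counts, and 2 libraries a group limit what small changes can be seen.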

Other observations

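Genes of the planar polarity machinery, which some Wnt and Frizzled proteins feed into, were measured beside them. With both ligands in ES cells 0 of 14 rose and 6 fell, Fuz (11.8 ± 2 CPM with both ligands, against 19.0 ± 3.08 CPM in control cells) and Celsr3 among them, against 11.3% of all genes called; with LG268 alone none was called. At day 8, 7 rose and 7 fell, against 78.7% of all genes called; Celsr2, an atypical cadherin, averaged 204 ± 18.2 CPM, against 25.4 ± 2.3 CPM in ES cells. With GW3965 at day 16, 2 rose and 4 fell, against 31.7% of all genes called, Daam2 1.96-fold lower and Celsr3 1.63-fold higher. With GW3965 at day 17, 4 rose and 1 fell, a share near the 35.2% of all genes called, and Daam2 was lower again (1.27-fold).

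Markers of the roof plate, the dorsal source of Wnts in the neural tube, summed to 24.26 and 21.76 CPM with GW3965 at day 16. Without GW3965 they summed to 41.16 and 41.88 CPM. Of the 6 genes 2 were lower and 0 higher, a share near the 31.7% of all genes called (13.0% higher, 18.7% lower). At day 17 they summed to 56.4 and 58.58 CPM with GW3965, against 46.44 and 36.39 CPM without, with 1 of 6 higher.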
